A study of Mus musculus with 4 samples.

Results

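TRAJ genes are the joining segments of the T cell receptor alpha locus, and their use was read from the paired receptor sequences of single CD4+ T cells. The set holds every TRAJ gene called in the alpha chain with the most UMIs of a barcode that also had 1 productive beta chain, after TRAV11-TRAJ18, the semi-invariant chain that marks NKT cells, was left out. It came to 43 TRAJ genes among the 165 V and J gene names of both chains, and the same 43 were found in brain and in spleen. All 43 matched the RefSeq gene table by symbol, which lists 60 TRAJ genes. Of the 17 not seen, 9 are listed there as pseudogenes, and the other 8 are TRAJ59, TRAJ46, TRAJ41, TRAJ29, TRAJ25, TRAJ20, TRAJ19 and TRAJ3.

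The cells were conventional CD4+ T cells with a CD44+ GITR- surface phenotype, sorted from the brain and the spleen of wild-type (WT) C57BL/6 mice with experimental autoimmune encephalomyelitis (EAE), a model of autoimmune inflammation of the central nervous system, 60 days after immunization. All groups thus share the disease, the day and the sort, and no healthy group is analysed here. From each tissue 1 RNA and 1 TCR library was made with droplet-based 5′ chemistry, after 18718 brain and 38000 spleen cells had been loaded. The labels do not say how many mice were pooled. With 1 library per tissue no test between tissues was possible, so that intervals and limits below cover counting error only, and tissue and library cannot be told apart.

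An alpha chain gene is assembled in the thymus by joining 1 TRAV segment to 1 TRAJ segment. The TRAJ segments lie in a long array between the TRAV segments and the constant gene TRAC, with the highest numbers on the TRAV side. When a first join gives no useful receptor, the locus can rearrange again, joining a TRAV segment farther upstream to a TRAJ segment farther downstream, which deletes the DNA between them. TRAJ also encodes the last part of the CDR3, the loop at the centre of peptide recognition, and the start of framework 4. Gene numbers were therefore used here as positions, and TRAJ genes were grouped as 5′ genes (numbers 41 and above, nearest TRAV), middle genes (21 to 40) and 3′ genes (1 to 20, nearest TRAC).

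The sequences of the TRAJ genes on which the results turn show what each adds to the receptor. They were read from the deposited contigs, 5′ to 3′. Capitals mark the longest CDR3 end carried by at least 50% of the gene's clonotypes, which approximates the part encoded by TRAJ and ends with the last CDR3 codon, and lower case marks framework 4. TRAJ23 and TRAJ31 are the most used genes, TRAJ57, TRAJ28 and TRAJ6 differ most between tissues after TRAJ23, TRAJ32 and TRAJ21 are carried by the largest clonotypes, and TRAJ33 and TRAJ53 have a short and a long end.
TRAJ23: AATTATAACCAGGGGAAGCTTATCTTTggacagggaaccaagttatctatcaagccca
TRAJ31: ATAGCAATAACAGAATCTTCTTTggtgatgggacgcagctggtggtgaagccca
TRAJ57: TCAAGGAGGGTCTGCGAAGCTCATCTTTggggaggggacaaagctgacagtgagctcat
TRAJ28: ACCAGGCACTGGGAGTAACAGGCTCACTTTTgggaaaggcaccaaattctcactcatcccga
TRAJ6: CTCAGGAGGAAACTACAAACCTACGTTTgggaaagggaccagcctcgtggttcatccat
TRAJ32: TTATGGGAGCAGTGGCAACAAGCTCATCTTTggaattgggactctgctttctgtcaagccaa
TRAJ21: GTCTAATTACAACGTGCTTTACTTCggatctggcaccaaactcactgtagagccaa
TRAJ33: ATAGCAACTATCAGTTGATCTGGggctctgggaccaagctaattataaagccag
TRAJ53: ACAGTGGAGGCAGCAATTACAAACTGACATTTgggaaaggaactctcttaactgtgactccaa

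The common end was 27 nucleotides long for TRAJ23, 23 for TRAJ31 and TRAJ33, and 32 for TRAJ53. Over the 43 genes it ranged from 23 to 32 nucleotides, with a median of 27. The length of the end and the mean CDR3 length of a gene's clonotypes ranked the genes almost alike, with a Spearman rho of 0.94 across the 43 genes, while the TRAJ number and the mean CDR3 length gave a rho of 0.206. Both are descriptions across genes, which share libraries, and the end is part of the CDR3. TRAJ53, TRAJ2, TRAJ32, TRAJ52 and TRAJ28 had the longest CDR3s, each with a median of 45 nucleotides. TRAJ33 had the shortest, with a median of 36, followed in order of their means by TRAJ43, TRAJ31, TRAJ47 and TRAJ21, each with a median of 39.

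Of 3549 brain and 7549 spleen barcodes with a receptor, 3028 and 6107 entered the set. They formed 2029 clonotypes in brain and 5617 in spleen, a clonotype being the same TRAV, TRBV and CDR3 nucleotides of both chains. The alpha chains rested on a median of 11 UMIs per cell in each tissue. The TRAV11-TRAJ18 chain had been left out in 119 brain and 650 spleen barcodes, and TRAJ18 joined to other TRAV genes remained. In the RNA of these cells summed UMIs were scaled to the same sum in both tissues (CPM), with Cd4 at 354 in brain and 364 in spleen and Cd3e at 755 and 745. Cd8a stood at 8.33 and 1.70 CPM, the gamma-delta constant gene Trdc at 0.774 and 2.29, and the myeloid gene Csf1r at 0.372 and 0.0205. Cd44, a marker of the sort, stood at 241 CPM in brain and 118 in spleen, and Ighm, a B cell gene, at 105 and 302, both past a ratio of 1.5, and their part in TRAJ use was not tested. Tnfrsf18, which encodes GITR, was present at 168 and 129 CPM although the sort took GITR- cells. Only 9 barcodes occurred in both TCR libraries; 7 were kept in both, and none of the 7 had the same clonotype in both.

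Use of the TRAJ genes was uneven and followed much the same order in both tissues. TRAJ23 led in brain with 176 clonotypes, or 8.67% (exact 95% interval 7.49 to 9.98), and was second in spleen with 268, or 4.77% (4.23 to 5.36). TRAJ31 led in spleen with 360 clonotypes (6.41%) and was second in brain with 123 (6.06%). TRAJ37 came next over both tissues with 119 brain (5.86%) and 254 spleen clonotypes (4.52%).

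All 3 are middle genes, and so were the next in use over both tissues. Equal use of the 43 genes would give each 2.33%, while the 6 genes with the highest shares together took 33.9% of brain and 28.1% of spleen clonotypes. TRAJ27 had 4.63% of brain and 4.56% of spleen clonotypes, TRAJ22 had 4.04% and 4.02%, and TRAJ40 had 4.58% and 3.72%. At the other end, TRAJ35 had 12 brain and 30 spleen clonotypes, TRAJ2 had 15 and 33, TRAJ5 had 17 and 37, and TRAJ28 had 20 and 36. TRAJ35 and TRAJ28 lie among the heavily used middle genes, so low use was not limited to the ends of the array.

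Between the tissues, 23 of 43 genes had clonotype shares within 1.2-fold of each other. Across the 43 genes the shares of both tissues had a Pearson r of 0.889 and a Spearman rho of 0.93, as a description across genes. Genes were counted as higher in a tissue at a ratio of shares of at least 1.5, among genes with at least 0.5% in the higher tissue. TRAJ23 and TRAJ28 passed as higher in brain, 2 of 43 or 4.65%, and TRAJ57 and TRAJ6 as higher in spleen, also 4.65%. In either direction 9.3% of TRAJ genes passed. By the same rule 4.84% of TRAV genes passed as higher in brain and 3.23% as higher in spleen, or 8.06% in either direction. For TRBV genes it was 4.76%, and 0 of 12 TRBJ genes passed.

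**Figure D1:**
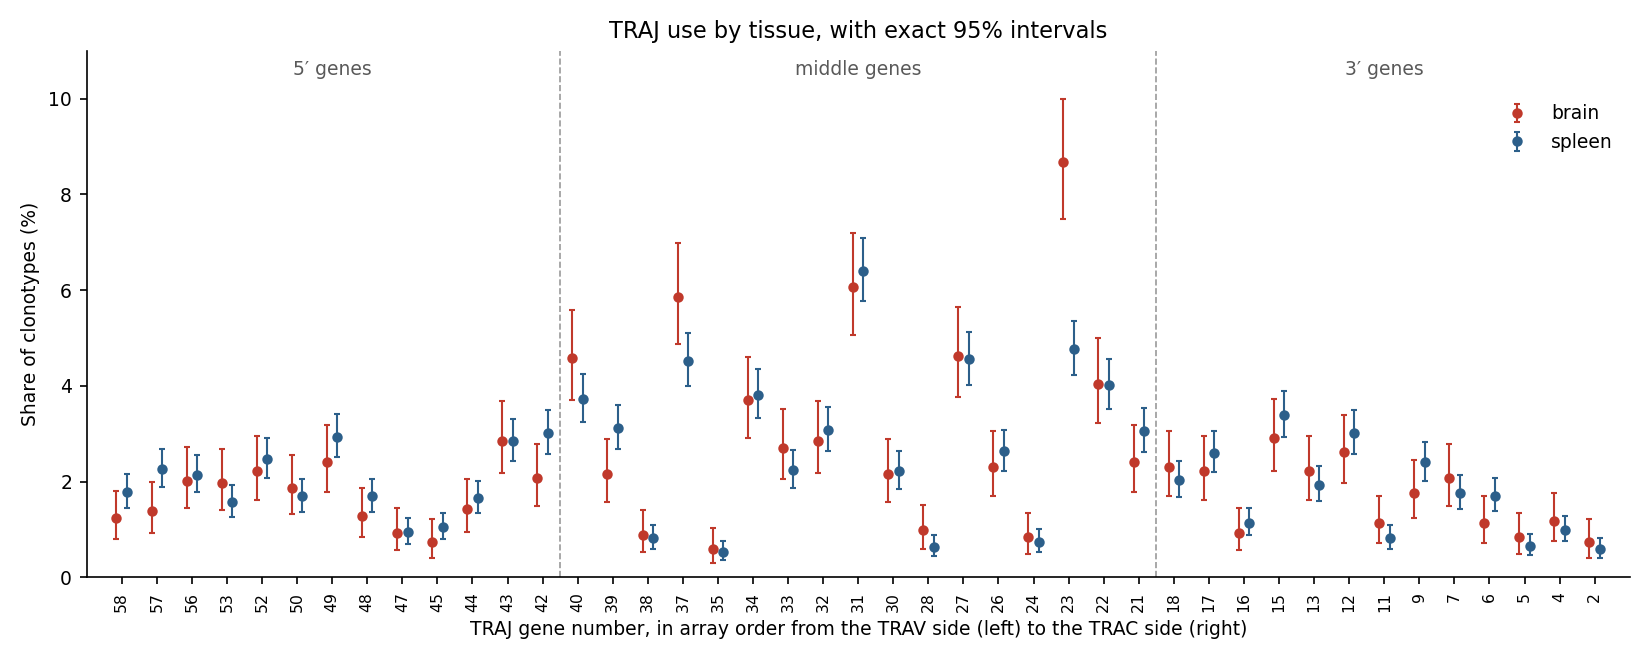
Share of clonotypes (%, vertical axis) of each of the 43 TRAJ genes in array order (horizontal axis), in brain (red) and spleen (blue), with exact 95% intervals for counting error. TRAJ23 is the only gene whose intervals do not overlap, at 8.67% in brain and 4.77% in spleen.

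TRAJ23 stood apart from the other 3. Its share was 1.82 times as high in brain, and it was the only one of the 43 genes whose intervals in brain and spleen did not overlap. TRAJ57 had 28 brain clonotypes, 1.38% (0.919 to 1.99), and 127 spleen clonotypes, 2.26% (1.89 to 2.68), a ratio of 1.64 in favour of spleen with intervals that overlap slightly. TRAJ6 had 23 brain (1.13%) and 96 spleen clonotypes (1.71%), and TRAJ28 had 20 brain (0.986%) and 36 spleen clonotypes (0.641%). For these 3 genes the intervals of both tissues overlapped. Overlap alone does not settle whether a difference is separable, and intervals of these differences were not computed. Just short of the ratio were TRAJ42 at 1.45, TRAJ58 and TRAJ39 at 1.44 and TRAJ45 at 1.42, all higher in spleen.

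The 5′ genes as a group were used less in brain. They took 455 of 2029 brain clonotypes, 22.4% (20.6 to 24.3), and 1463 of 5617 spleen clonotypes, 26.0% (24.9 to 27.2). The difference of brain minus spleen was -3.62 percentage points, with a Newcombe 95% interval of -5.73 to -1.44. With the TRAV11-TRAJ18 chain kept in, it was -2.13 points. Shares were lower in brain for 10 of the 13 5′ genes, among them TRAJ57, TRAJ58, TRAJ45 and TRAJ42, and for 7 of 17 middle and 6 of 13 3′ genes, or 23 of all 43.

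Middle genes took 55.5% of brain and 50.9% of spleen clonotypes, a difference of 4.58 points (2.04 to 7.09). For the 3′ genes the shares were 22.1% and 23.0%, a difference of -0.957 points with an interval from -3.04 to 1.19. The 3′ genes were thus not separable between tissues at this depth, and the median TRAJ number was 31 in both. With TRAJ23 left out of both tissues, a choice made after seeing the data, the difference in 5′ genes was -2.80 points (-5.05 to -0.465) and that in middle genes 2.81 points (0.169 to 5.45).

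TRAV genes near the TRAJ array were joined to 5′ TRAJ genes more often than distant ones were. The TRAV array of C57BL/6 mice holds repeated stretches, and the genes were grouped by RefSeq order into a far end, a stretch named with D, a stretch named with N, a stretch without suffix that was split at its middle into a far and a near part, and a near end. All 88 TRAV genes seen matched the RefSeq table. The median TRAJ number in brain was 23 for the far end, the D copy and the N copy, then 31 and 40 for the far and near part of the unsuffixed copy, and 50 for the near end. In spleen it was 23, 27, 23, 31, 42 and 53 in the same order.

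The share of 5′ TRAJ genes moved with it. In spleen it was 7.03% in the far end, 18.8% in the D copy, 12.9% in the N copy, 21.5% and 50.4% in the far and near part of the unsuffixed copy, and 85.1% in the near end. In brain the same 6 values were 5.56%, 11.4%, 10.9%, 20.1%, 44.8% and 74.6%. Of the clonotypes of near-end TRAV genes, only 1 in brain and 1 in spleen carried a 3′ TRAJ gene, against 33.0% and 36.9% in the N copy.

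**Figure D2:**
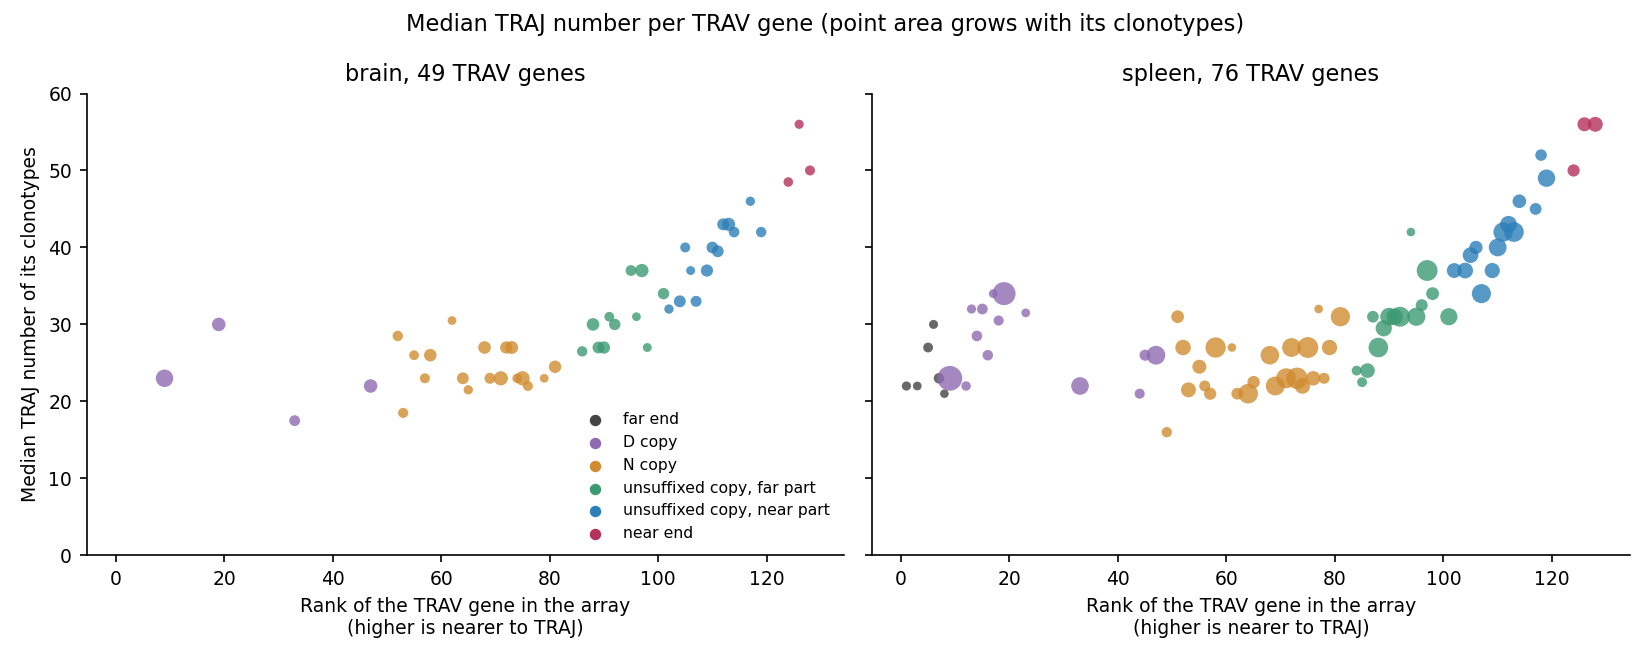
Median TRAJ number of the clonotypes of each TRAV gene (vertical axis) against the gene's rank in the RefSeq order of the array (horizontal axis), for the 49 brain and 76 spleen TRAV genes with at least 15 clonotypes, coloured by stretch. Medians lie flat across the N copy and climb from the start of the unsuffixed copy to the near end.

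Single TRAV genes showed where along the array the slope begins. TRAV21-DV12, the last one in rank with enough clonotypes, had a median TRAJ number of 50 in brain (25 clonotypes) and 56 in spleen (72 clonotypes), and TRAV19 had 56 in both. Over the 27 brain and 32 spleen TRAV genes from the unsuffixed copy onward, rank and median TRAJ number had a Spearman rho of 0.921 and 0.937. Over the 22 brain and 44 spleen genes before it, rho was 0.0139 and -0.0370. These are descriptions across genes of 1 library each.

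Members of the same name in both copies gave the same picture. Of 16 TRAV members with at least 15 clonotypes in both the N copy and the unsuffixed copy in brain, the unsuffixed, nearer member had the higher median TRAJ number in 16, and in spleen in 19 of 20. The median of the differences was 12.75 TRAJ numbers in brain and 14 in spleen. For TRAV7-6 the median moved from 22 in the N copy to 42 in brain and from 23 to 46 in spleen, and for TRAV6-5, the exception in spleen, it was 31 in both. Such copies are nearly identical in sequence, so the calls can be split between names.

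Brain had the lower share of 5′ genes in each of the 6 stretches, but the size of the gap varied. It was largest in points at the near end, -10.4 (-22.4 to -0.0289), then in the D copy with -7.41 (-11.3 to -2.96) and the near part of the unsuffixed copy with -5.53 (-10.9 to -0.0995). In the far end, the N copy and the far part of the unsuffixed copy the intervals included 0, with differences of -1.48, -1.98 and -1.37.

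Grouping by TRAV family number gave the extremes. TRAV1 and TRAV2 had no clonotype with a 5′ TRAJ gene among 10 in brain and 26 in spleen, which allows shares of up to 30% and 11.5%. Families 17 to 21 had 74.2% of 66 brain and 85.0% of 180 spleen clonotypes with a 5′ TRAJ gene. The differences were 74.2 points (44.1 to 83.3) in brain and 85.0 points (70.8 to 89.5) in spleen. TRAV1-TRAJ33, the alpha chain of MAIT cells, was found in 0 of 2029 brain clonotypes, which allows up to 0.148%, and in 1 of 5617 in spleen.

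**Figure D3:**
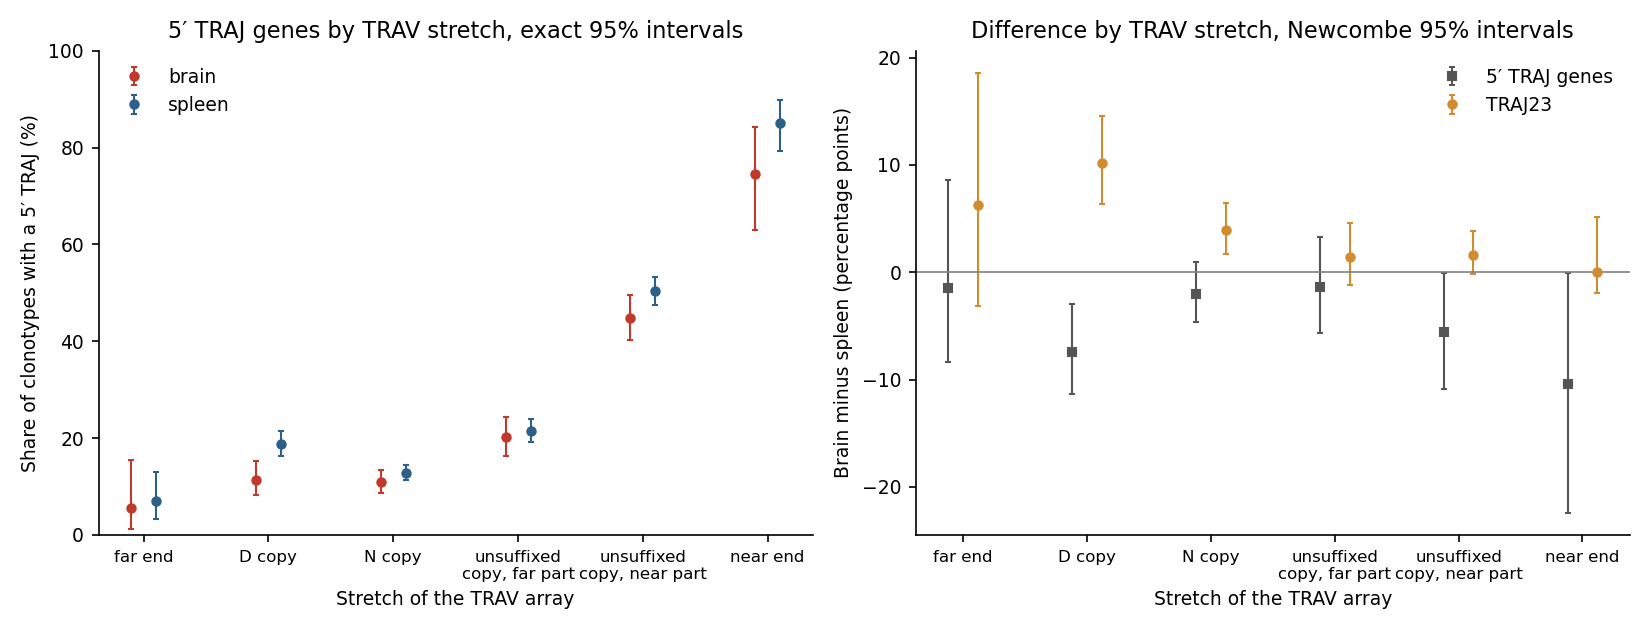
Left, share of clonotypes with a 5′ TRAJ gene (%, vertical axis) by stretch of the TRAV array, for brain (red) and spleen (blue) with exact 95% intervals. Right, brain minus spleen in percentage points for the 5′ genes (grey) and TRAJ23 (orange) with Newcombe 95% intervals. TRAJ23 is 10.2 points higher in brain in the D copy, which includes TRAV7D-2.

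In percentage points, the higher share of TRAJ23 in brain was unevenly spread over the TRAV array. Points depend on the base share of a stretch, and ratios of shares were not compared between stretches. In the D copy TRAJ23 took 16% of brain and 5.76% of spleen clonotypes, a difference of 10.2 points (6.34 to 14.6). The D copy includes TRAV7D-2, which alone had 32 brain and 18 spleen clonotypes with TRAJ23. The difference in the D copy was not computed without this gene. In the N copy the shares were 9.28% and 5.34%, a difference of 3.93 points (1.71 to 6.49). In the far end the difference was 6.22 points, from 14.8% of 54 brain and 8.59% of 128 spleen clonotypes, with an interval from -3.17 to 18.6. In both parts of the unsuffixed copy the intervals included 0 as well, with differences of 1.47 and 1.56 points.

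No near-end TRAV gene was joined to TRAJ23, in 0 of 71 brain and 0 of 194 spleen clonotypes, which allows up to 4.23% and 1.55%. TRAJ23 lies on the TRAC side of the middle genes. Its TRAV partners were nevertheless many, with 57 of 86 TRAV genes in brain and 64 of 88 in spleen.

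One partner stood out. TRAV7D-2 joined to TRAJ23 made up 32 brain clonotypes, 1.58% (1.08 to 2.22), and 18 spleen clonotypes, 0.320% (0.190 to 0.506). Of all TRAV7D-2 clonotypes, TRAJ23 took 30.8% (22.1 to 40.6) in brain and 8.07% (4.85 to 12.5) in spleen, while TRAV7D-2 itself was 5.13% of brain and 3.97% of spleen clonotypes. Among the 32 brain clonotypes, 10 shared the same alpha chain and 4 shared another. They are thus not 32 independent joins, and the brain intervals of this pair are too narrow. With TRAV7D-2 left out of both tissues, a choice made after seeing the data, TRAJ23 still had 7.48% (6.34 to 8.75) in brain and 4.63% (4.09 to 5.23) in spleen. The brain share of TRAJ23 thus remained higher, at intervals that do not overlap, among the other TRAV genes.

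Counted by clonotype, a CDR3 length of 39 nucleotides was more common with TRAJ23 in brain than in spleen. A CDR3 of 39 nucleotides was carried by 96 of 176 brain TRAJ23 clonotypes, 54.5% (46.9 to 62.1), and by 106 of 268 in spleen, 39.6% (33.7 to 45.7). Among clonotypes with other TRAJ genes the same length had 31.6% and 30.6%. Of the TRAV7D-2-TRAJ23 clonotypes, 29 of 32 in brain and 11 of 18 in spleen had this length. This pair thus gave 29 of the 96 brain and 11 of the 106 spleen clonotypes of that length. The tissues were not compared in length without it. Repeated TRAJ23 alpha chains of this length, in 10, 4 and 4 brain clonotypes, count once for each clonotype. The brain interval is therefore too narrow.

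Of the 5 TRBV genes most frequent with TRAJ23 in brain, 2 were more frequent with TRAJ23 than with other TRAJ genes there. The call written TRBV12-2+TRBV13-2 made up 19.9% (14.3 to 26.6) of the brain TRAJ23 clonotypes and 13.4% (9.59 to 18.1) in spleen, against 9.44% and 9.07% among other TRAJ genes. TRBV20 made up 13.1% (8.47 to 19.0) in brain and 6.34% (3.74 to 9.96) in spleen, against 5.56% and 4.69% among other TRAJ genes, so that in spleen the interval included the share of other TRAJ genes. In brain TRBV5 had 10.2% with TRAJ23 and 10.4% with other TRAJ genes, TRBV19 had 7.39% and 8.74%, and TRBV3 had 6.25% and 8.53%. Of the TRBV20 clonotypes with TRAJ23, 9 of 23 in brain and 3 of 17 in spleen carried TRAV7D-2. The share of TRBV20 was not compared without TRAV7D-2-TRAJ23. Without TRBV20 clonotypes, TRAJ23 had 8.04% in brain and 4.69% in spleen.

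Some identical TRAJ23 alpha chains recurred with different beta chains. Of the 152 distinct TRAJ23 alpha chains in brain, 11 or 7.24% (3.67 to 12.6) occurred in more than 1 clonotype, against 6 of 261 or 2.30% (0.848 to 4.94) in spleen and 2.29% and 2.19% over all TRAJ genes. The intervals of brain and spleen overlap, and an interval of the difference per chain was not computed. Counted by clonotype, such chains were in 19.9% (14.3 to 26.6) of brain and 4.85% (2.61 to 8.15) of spleen TRAJ23 clonotypes. Over all TRAJ genes the values were 5.32% and 4.56%. Clonotypes that share a chain count separately here, so these intervals are too narrow. With clonotypes set by the alpha chain only, the brain over spleen ratio of TRAJ23 was 1.62. The most repeated one, in 10 brain clonotypes with 5 TRBV genes and in 1 spleen clonotype, and those in 4 brain clonotypes each are shown because they end alike and differ in the bases before that end. Capitals mark bases identical to the common TRAJ23 end.
TRAV7D-2 with TRAJ23, 10 clonotypes: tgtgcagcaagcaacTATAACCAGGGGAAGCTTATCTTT
TRAV7D-2 with TRAJ23, 4 clonotypes: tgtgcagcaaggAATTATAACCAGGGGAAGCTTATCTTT
TRAV12-2 with TRAJ23, 4 clonotypes: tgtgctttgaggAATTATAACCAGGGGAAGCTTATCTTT

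The chain in 10 clonotypes belongs to the third largest brain clonotype of 48 cells, and the other 9 clonotypes had 9 cells in all. The chain's UMIs in the 9 other clonotypes had a median of 18, from 8 to 39, against 18.5 in the large clonotype. All 3 chains are 39 nucleotides long.

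In all there were 1151 different TRAV-TRAJ pairs in brain, of which 688 had 1 clonotype, and 1965 in spleen, of which 798 had 1. The pairs with most clonotypes in spleen were TRAV10-TRAJ31 with 24 (6 in brain), TRAV21-DV12-TRAJ57 with 20 (3 in brain), TRAV7D-2-TRAJ23, and TRAV7D-2-TRAJ15 and TRAV7D-2-TRAJ22 with 17 each. TRAV21-DV12 thus supplied 15.7% of the TRAJ57 clonotypes of spleen. In brain, after TRAV7D-2-TRAJ23, came TRAV3N-3-TRAJ27 and TRAV6-7-DV9-TRAJ53 with 10 each (9 and 5 in spleen), and TRAV12-2-TRAJ23 and TRAV5-4-TRAJ40 with 9 each (7 and 6 in spleen).

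TRAJ use was then set against clone size. In brain 1740 clonotypes had 1 cell, 225 had 2 to 4 and 64 had at least 5, and in spleen 5364, 229 and 24. TRAJ23 was carried by 7.93% (6.70 to 9.30) of the brain clonotypes of 1 cell, 12.9% (8.80 to 18.0) of those of 2 to 4 cells and 14.1% (6.64 to 25.0) of those of at least 5. In spleen the shares were 4.66% (4.11 to 5.26), 7.42% (4.38 to 11.6) and 4.17% (0.105 to 21.1), the last from 1 of 24 clonotypes. Within each tissue the intervals of the 3 size classes overlapped. With all clonotypes of at least 2 cells joined, TRAJ23 had 38 of 289 in brain, 13.1% (9.48 to 17.6). This interval lay just above that of the brain clonotypes of 1 cell. In spleen the joined class had 7.11%, and its interval overlapped that of 1 cell. Clonotypes that share an alpha chain count separately here, so these intervals are too narrow.

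Among clonotypes of 1 cell the intervals for TRAJ23 in brain and spleen did not overlap. Among those of at least 5 cells they overlapped broadly. The 5′ genes had 22.9% of the brain clonotypes of 1 cell and 19.7% (15.3 to 24.8) of those of at least 2. In spleen the shares were 26.3% (25.1 to 27.5) and 20.2% (15.4 to 25.6). For clonotypes of at least 2 cells the intervals of both tissues overlapped broadly. A difference in 5′ genes among them was not separable at this depth.

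**Figure D4:**
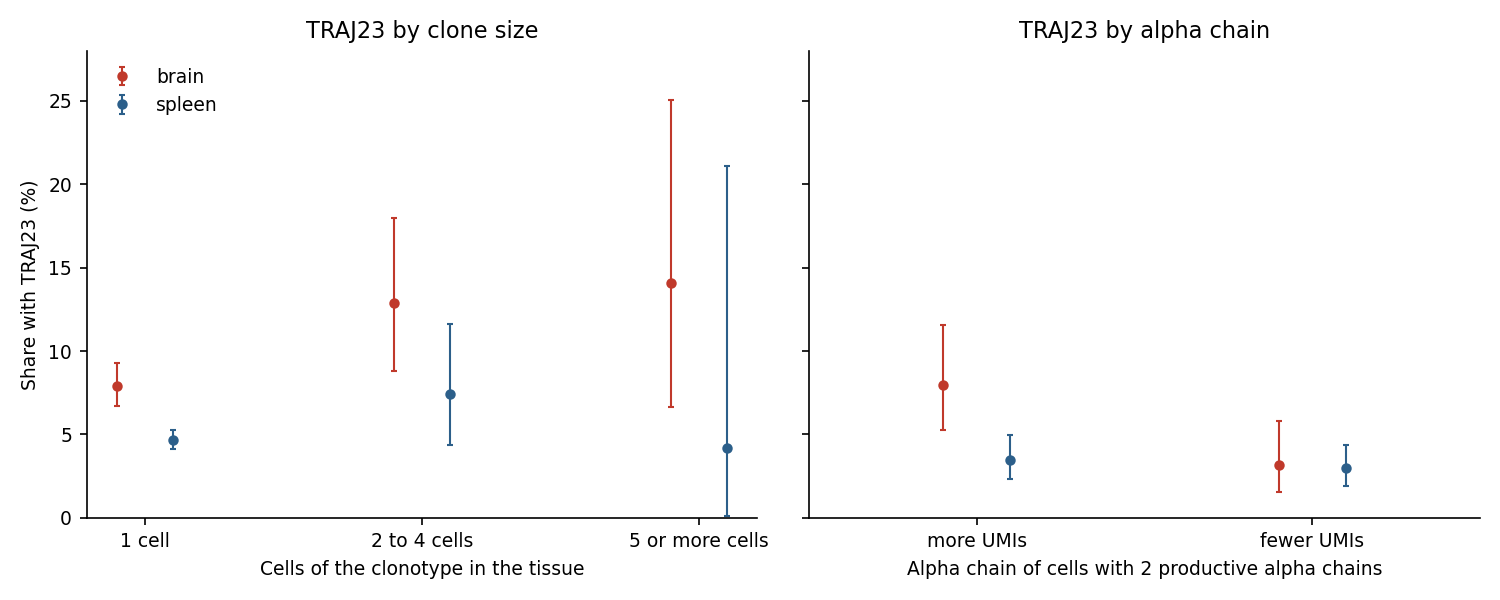
Share with TRAJ23 (%, vertical axes) by clone size (left) and, over distinct pairs of chains in cells with 2 productive alpha chains, for the chain with more and the chain with fewer UMIs (right), in brain (red) and spleen (blue) with exact 95% intervals. In brain the share is 7.99% in the chain with more UMIs and 3.19% in the other.

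Counted per cell, a few large clonotypes moved single TRAJ genes. TRAJ32 had 2.86% of brain clonotypes but 5.28% of brain cells, a ratio of 1.85, and TRAJ21 had 2.41% and 4.13%, a ratio of 1.71. Next in brain were TRAJ12 at 1.33, TRAJ7 at 1.32 and TRAJ6 at 1.31. In spleen TRAJ32 had the highest ratio, 1.38, and TRAJ4, TRAJ13, TRAJ40 and TRAJ26 had 1.10, 1.08, 1.05 and 1.03.

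A single clonotype stood behind each leading value. The largest brain clonotype, TRAV13N-1-TRAJ21 with TRBV13-3, held 67 of the 125 TRAJ21 cells of brain and was not found in spleen. A TRAV7-5-TRAJ32 clonotype with TRBV26 held 57 of 160 TRAJ32 cells in brain and 60 of 260 in spleen, where it was the largest. The second largest spleen clonotype, with 15 cells there and 8 in brain, had the same TRAV7-5-TRAJ32 alpha chain and TRBV26.

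The others among the 5 largest in brain were TRAV7D-2-TRAJ23 with TRBV20 (48 cells, 1 in spleen), TRAV9-1-TRAJ22 with TRBV26 (28 cells, 3 in spleen) and TRAV14D-3-DV8-TRAJ12 with TRBV20 (27 cells, 0 in spleen). In spleen they had at most 10 cells, with TRAJ13, TRAJ52 and TRAJ17. The alpha CDR3s of both clonotypes with the most cells are shown with the bases of the common TRAJ end in capitals.
TRAV13N-1 with TRAJ21: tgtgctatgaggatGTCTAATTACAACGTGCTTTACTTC
TRAV7-5 with TRAJ32: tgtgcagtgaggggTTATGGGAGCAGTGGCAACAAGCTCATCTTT

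Per cell, TRAJ23 had 322 of 3028 brain cells (10.6%) and 299 of 6107 spleen cells (4.90%). With it, TRAJ37 and TRAJ7 passed the ratio of 1.5 as higher in brain, 7.14% of the 42 genes with at least 0.5% of cells. For TRAJ37, just past the ratio, 1 clonotype held 25 of its 198 brain cells, and for TRAJ7, at 1.64, 1 clonotype held 19 of 83. Without that clonotype, a choice made after seeing the data, the ratios were 1.32 and 1.27, and neither passed, while TRAJ23 had 1.88. TRAJ42, TRAJ58, TRAJ45, TRAJ57 and TRAJ39 passed as higher in spleen, 11.9%. These last 5 include 4 of the 5′ genes, and the 5′ genes together had 19.5% of brain and 25.4% of spleen cells. Cells of a clonotype share their TRAJ gene, so intervals over cells are too narrow and none is given.

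Clonotypes found in both tissues numbered 188, which is 9.27% of the brain and 3.35% of the spleen clonotypes. Their 5′ genes made up 16.5% (11.5 to 22.6), against 23.0% (21.1 to 25.0) of the clonotypes seen only in brain and 26.4% (25.2 to 27.6) of those seen only in spleen. TRAJ23 was carried by 19 of the 188, 10.1% (6.20 to 15.3), by 8.53% (7.29 to 9.90) of the brain-only and by 4.59% (4.05 to 5.18) of the spleen-only clonotypes. Clone size was not matched between these sets.

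TRAJ6 and TRAJ57, both of higher share in spleen, differed here. TRAJ6 had 8 of its 23 brain clonotypes, 34.8% (16.4 to 57.3), also in spleen. TRAJ57 had 0 of its 28 brain clonotypes in spleen, a count of 0 that allows up to 10.7%, and so 0 of the 188 common clonotypes, which allows up to 1.60%.

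A T cell can carry a second alpha chain, rearranged on its other chromosome. A second productive alpha chain was present in 383 brain and 835 spleen cells, as 313 and 807 distinct pairs of chains. TRAJ numbers of the paired chains lay close to each other, with a median distance of 6 in brain and 7 in spleen. Spearman's rho over the pairs was 0.672 and 0.707, as a description across pairs of 1 library. Of the second chains, 67.2% had a 5′ TRAJ gene in the 67 distinct brain pairs whose first chain did, and 4.05% in the 74 pairs whose first chain had a 3′ gene. In spleen the values were 65.9% and 1.83%.

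TRAJ23 was counted in first and second chains. It was the TRAJ of the first chain in 25 of 313 brain pairs, 7.99% (5.24 to 11.6), and of the second in 10, 3.19% (1.54 to 5.80). In spleen it had 28 of 807 first chains (3.47%) and 24 second chains (2.97%). The intervals of both chains overlap slightly in brain. Both chains come from the same pairs, and their difference was not tested with that pairing. First and second were set by UMIs, with a median of 13 against 8 in both tissues.

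Transcripts assigned to the Traj genes themselves in the RNA libraries could be set against the receptor calls. The count tables hold 60 Traj genes, with 1150 UMIs in the kept brain cells and 1622 in the kept spleen cells. Of these UMIs, 75.4% (72.8 to 77.9) in brain and 75.7% (73.5 to 77.8) in spleen belonged to Traj genes on the TRAC side of the gene called in the same cell. The called gene itself had 13.0% and 14.2%, and genes on its TRAV side had 11.7% and 10.1%. These shares also depend on which Traj genes are detected at all. Traj24 alone had 132 UMIs in brain and 220 in spleen, of which 130 and 218 lay in cells with another call. The share on the TRAC side that UMIs and calls of unrelated cells would give was not computed, so these values lack a base share. Traj genes that no receptor used held 13.0% of the UMIs in brain and 12.6% in spleen.

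The position of the call also went with the amount. Traj UMIs came to 44.8 CPM in brain cells with a 5′ call, 38.0 with a middle call and 20.9 with a 3′ call, and to 42.9, 34.7 and 18.8 CPM in spleen. In cells with a 3′ call, 0 of 146 Traj UMIs in brain, which allows up to 2.05%, and 2 of 209 in spleen came from 5′ Traj genes. In cells with a 5′ call, 75 of 276 and 150 of 542 did. Both alpha loci of a cell contribute to these counts, and what was rearranged on the locus without a recovered chain is not known.

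**Figure D5:**
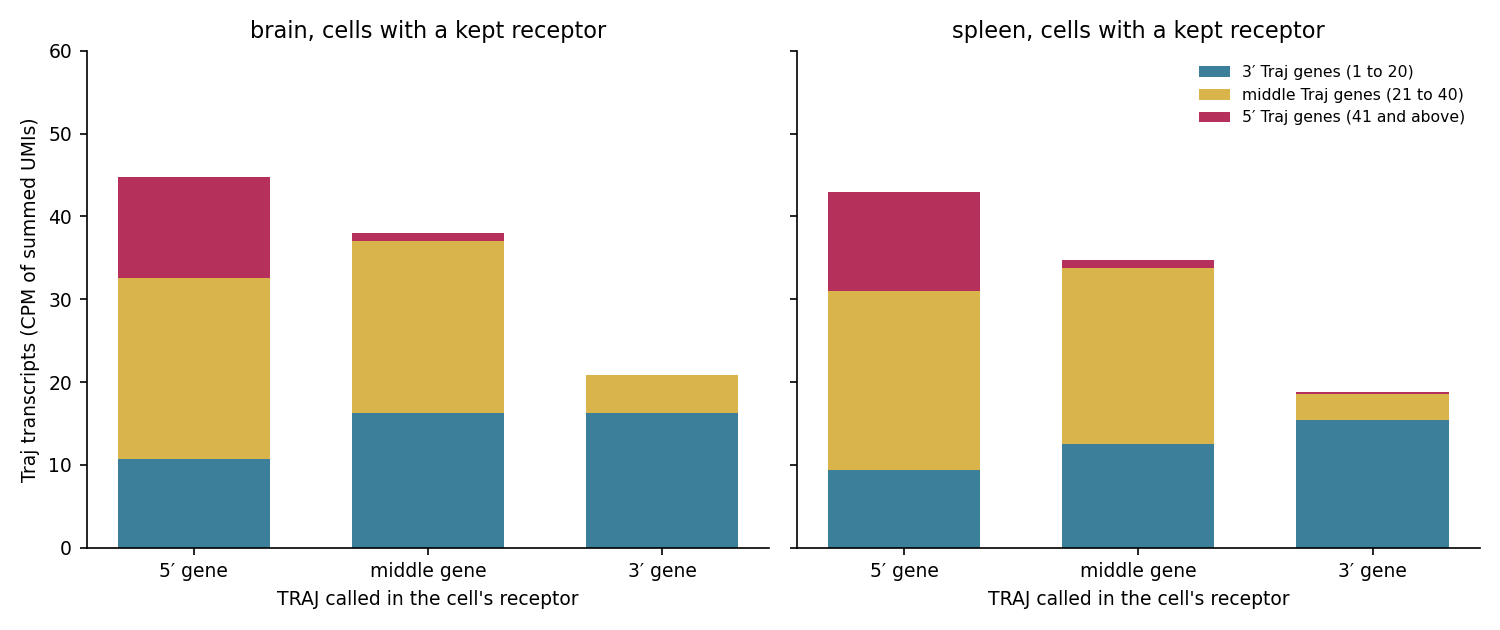
Traj transcripts in CPM of summed UMIs (vertical axis) in cells grouped by the TRAJ gene called in their receptor (horizontal axis), in brain (left) and spleen (right), coloured by the position of the transcribed Traj gene. Cells with a 3′ call have almost no 5′ Traj transcripts, with 0 of 146 UMIs in brain and 2 of 209 in spleen.

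No measured gene of the recombination machinery passed the ratio between the tissues. Of 16 genes listed for V(D)J recombination and end joining, 10 had at least 10 CPM and 0 passed a ratio of 1.5 in either direction, against 10.4% of 8573 genes higher in brain and 8.48% higher in spleen. Their median log2 ratio of brain over spleen was -0.16, with -0.07 over all 8573 genes. Of the 6 genes under 10 CPM, Dntt, which encodes the polymerase that adds bases at the joins, had 0.960 CPM (0.652 to 1.36) in brain and 3.87 (3.34 to 4.46) in spleen, and Lig4, the ligase of end joining, had 2.26 and 3.68. Rag1 and Rag2, the recombinase genes, had 0 UMIs in both tissues, which allows up to 0.0929 CPM in brain and 0.0614 in spleen. Of the 7 genes listed for the receptor constant regions and CD3, all 7 were measured and 0 passed, with Trac, the constant gene downstream of TRAJ, at 351 and 371 CPM.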

How the data were processed

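Per the labels' protocols, cells were sorted and captured with 5′ single-cell chemistry with receptor sequencing. The submitters' processing notes list Cell Ranger 9.0.0 and the builds GRCm39, GRCm38, mm39 and mm10, and since they do not tell which build was used for what, positions are not printed. The RefSeq table (GRCm38.p6) served only for names and gene order. The deposited contig tables hold UMI and read counts with V, J and CDR3 calls for 7537 brain and 15912 spleen contigs, all marked productive, so non-productive joins were not analysed here. The deposited RNA matrices hold whole UMI counts; the authors gave no normalization. Kept cells had 32288713 UMIs in brain (median 10215 per cell) and 48860296 in spleen (median 7467).

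Barcodes with more than 1 productive beta chain (179 in brain, 315 in spleen) were left out, which is the only treatment of doublets. Where a cell had 2 alpha chains, the one with more UMIs was used, and 29 brain and 48 spleen cells had equal UMIs, resolved by a fixed order. Shares have exact Clopper-Pearson intervals and differences Newcombe intervals, at a confidence level of 95%. A count of 0 allows 3 counts. CPM are UMIs summed over the kept cells of a tissue and scaled to 1000000 in all. The scripts were tested on simulated data and used Python 3.11.15, pandas 2.3.3 and scipy 1.17.1.

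Named genes are the 6 highest and 4 lowest TRAJ by clonotype share over both tissues, all past 1.5-fold, the 5 with the highest ratio of cell to clonotype share per tissue, the 5 longest and 5 shortest by CDR3 (ties in the median ordered by the mean), the 5 commonest pairs and 5 largest clonotypes per tissue, and TRAV1-TRAJ33. The genes, lists and tests were chosen with earlier results of these data known. The grouping of TRAV genes by stretch, the analyses within TRAJ23 and the count of repeated alpha chains were added after seeing the data, and so was the choice of the other pairs, TRAV genes and chains named there.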

Additional observations from a re-analysis of the deposited data

How the results depend on the processing

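No paired analysis was possible because each tissue has 1 library. The counts of genes past the fold moved with the setting. Of 2 higher in brain, a lower fold gave 7, a fold of 2 gave 0, a minimum share of 1% gave 1, and adding the demand of intervals that do not overlap, chosen after seeing the data, gave 1, TRAJ23. Of 2 higher in spleen, the lower fold gave 9 and a fold of 2 gave 0. Counting cells gave 5, leaving out clonotypes in both tissues gave 4, and each of 3 settings gave 1: clonotypes by the alpha chain only, at least 3 alpha chain UMIs, and TRAV7D-2 left out (chosen after seeing the data). Intervals that do not overlap gave 0. The brain over spleen ratio of TRAJ23 stayed between 1.61 and 2.17 over 13 alternatives. That of TRAJ57 stayed between 0.568 and 0.65. TRAJ28 ranged from 1.11 over cells to 1.78 and lost its call under 1 alternative. TRAJ6 ranged from 0.503 to 0.856 over cells, with 0.815 at exactly 1 alpha chain, and lost its call under 7. Per cell, 1 gene, TRAJ23, in place of 3 was higher in brain without the largest clonotype of each called gene, chosen after seeing the data.

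The share of 5′ genes moved to 19.5% in brain cells, to 23.4% in spleen with TRAV11-TRAJ18 kept in, to 24.6% in brain and 27.4% in spleen without TRAJ23 (chosen after seeing the data), and to 27.0% and 29.8% with groups of equal numbers of TRAJ genes. Brain minus spleen was -5.95 points over cells and kept its sign over all 14 alternatives, from -5.95 to -2.13, the latter with TRAV11-TRAJ18 kept in. The median TRAJ number became 30 in both tissues with TRAV11-TRAJ18 kept in, 30 in brain over cells, and 32 in both tissues without TRAJ23. For TRAV pairing, the near part of the unsuffixed copy against the N copy, chosen after seeing the data, gave 34.0 points in brain and 37.5 in spleen, in place of 74.2 and 85.0 for the families. Shares among clonotypes of at least 5 cells stayed within their intervals. Depth limits single genes: the rarest TRAJ had 12 clonotypes in brain.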
